A study of Mus musculus with 8 samples.

Results

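The genes described here are 7 transcription factors known for driving mesenchymal transition: the zinc finger genes Snai1 and Snai2, the basic helix-loop-helix genes Twist1 and Twist2, the zinc finger and homeodomain genes Zeb1 and Zeb2, and the paired-related homeobox gene Prrx1. They were chosen by name, as the rows whose Ensembl identifier carries one of these 7 symbols. All 7 were among the 52636 rows of the count table, and all 7 were among the 15698 genes that passed the filter on low counts. RNA was sequenced from mouse liver endothelial cells, which line the vessels, kept in culture and sorted as live cells with CD31 and VE-cadherin on their surface and without the leukocyte protein CD45. The 4 groups of 2 libraries each were dKO cells given IL1B and TNFA, dKO cells without cytokines, WT cells given IL1B and TNFA, and WT cells without cytokines. IL1B and TNFA are inflammatory cytokines. The labels do not expand dKO; the series' design text describes an inducible deletion of Erg, Fli1 or both, which are ETS transcription factors of endothelial cells. Per that text, which makes no exception for WT cells, the cultures received 4-OHT, the active form of tamoxifen, for 48 hours and were collected 7 days after it was first added, and cytokines, where given, were left on for 16 hours. The labels also speak of 4-OHT given to mice, and the Cre driver, the strain, the age of the animals and the number of animals or cultures behind the libraries are stated nowhere in the labels. The p-values therefore measure only the spread between these libraries.

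In a mesenchymal transition, epithelial or endothelial cells lose junction genes and gain genes of matrix and motility. SNAI, ZEB and TWIST proteins bind E-box motifs, and SNAI and ZEB proteins are best known as repressors of the E-cadherin gene Cdh1. PRRX1 marks mesenchymal progenitors and fibroblasts, and the transition in endothelial cells is best known from heart cushion development and from tissue fibrosis.

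Promoter windows of the 3 genes that were higher in dKO than in WT cells both with and without cytokines are shown because they can be read beside that shared direction. RefSeq sequences of 300 bases, from 250 before to 50 after the annotated start (build GRCm38.p6), were at hand for 5 of the 7 genes: Snai1, Twist1, Twist2, Zeb2 and Prrx1. No window was at hand for Snai2 and Zeb1. Snai1 lies on the plus strand (chr2:167537945-167538244), Twist2 on the plus strand (chr1:91801211-91801510) and Prrx1 on the minus strand (chr1:163313601-163313900); each is printed 5′ to 3′ along its gene, and capitals mark a motif match.
Prrx1: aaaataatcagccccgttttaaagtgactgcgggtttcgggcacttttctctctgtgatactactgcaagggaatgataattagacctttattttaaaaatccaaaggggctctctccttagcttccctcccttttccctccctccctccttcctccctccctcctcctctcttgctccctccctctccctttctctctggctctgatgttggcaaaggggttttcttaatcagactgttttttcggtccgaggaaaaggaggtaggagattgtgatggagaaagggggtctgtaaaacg
Snai1: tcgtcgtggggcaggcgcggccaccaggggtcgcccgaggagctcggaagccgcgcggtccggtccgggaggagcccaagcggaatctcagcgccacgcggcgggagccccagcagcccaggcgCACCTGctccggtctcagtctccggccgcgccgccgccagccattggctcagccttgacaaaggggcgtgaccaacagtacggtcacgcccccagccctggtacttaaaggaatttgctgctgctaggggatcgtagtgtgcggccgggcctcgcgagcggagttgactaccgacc
Twist2: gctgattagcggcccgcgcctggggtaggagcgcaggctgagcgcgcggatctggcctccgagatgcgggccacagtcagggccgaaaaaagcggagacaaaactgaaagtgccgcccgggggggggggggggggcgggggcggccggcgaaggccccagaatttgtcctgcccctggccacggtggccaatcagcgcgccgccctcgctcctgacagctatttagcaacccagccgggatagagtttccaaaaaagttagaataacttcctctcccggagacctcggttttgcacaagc
Searched on both strands were CAGGAA and CCGGAA, which hold the GGAA core of ETS sites, and CAGGTG, an E-box known to be bound by SNAI and ZEB proteins. The Snai1 window held 1 CAGGTG, on the strand opposite to the gene, which reads CACCTG in the printed letters. The Prrx1 and Twist2 windows held none of the 3 motifs, and no matches overlapped; this says only that these letters are not in those windows. Of 32851 such windows across all genes, 30.6% held CAGGAA, 14.9% held CCGGAA and 20.2% held CAGGTG. The GC content was 47.7% in the Prrx1 window, 70.0% in the Snai1 window and 64.7% in the Twist2 window.

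The libraries held between 23009062 and 26944030 counts. Erg stood between 34.7 and 91.3 CPM (counts scaled to the library's total) in the 4 dKO libraries and between 186 and 208 CPM in the 4 WT libraries, and Fli1 between 12.4 and 62.5 CPM in dKO and between 91.5 and 177 CPM in WT libraries. Both replicate 2 dKO libraries had higher Erg and Fli1 than the replicate 1 dKO libraries, and they stood nearer to WT on the first principal component. Those replicate 2 dKO libraries also held both Xist and the Y-linked gene Ddx3y. How counts between genotypes move without them is stated beside those counts, except for markers of other cell types. The WT replicate 1 libraries held Ddx3y at 110 and 118 CPM and Xist at 0.926 and 0.48 CPM, with and without cytokines. The WT replicate 2 libraries held Xist at 454 and 633 CPM and Ddx3y at 0.0393 and 0.0337 CPM. All 18 endothelial markers reached 1 CPM or more on average in every group. Their summed level was 2253 to 4586 CPM in dKO and 7056 to 11660 CPM in WT libraries. A level of 1 CPM does not by itself show the cell type. In each group 9 of 16 markers of stellate cells, pericytes and fibroblasts reached it too. In bulk RNA, fewer cells of a type and less RNA per cell cannot be told apart.

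Set beside each other per length, the 7 genes had a different order of levels in dKO and in WT cells. Levels here are CPM per kilobase of the merged exons of a gene, a length that includes the exons of all annotated transcripts. In dKO cells given cytokines the order was Prrx1 at 25.6 ± 3.90, Snai1 at 11.2 ± 1.26, Zeb1 at 10.5 ± 0.779, Twist1 at 6.99 ± 1.75, Zeb2 at 6.58 ± 0.216, Snai2 at 0.400 ± 0.102 and Twist2 at 0.345 ± 0.0630 CPM per kilobase (SD, n = 2). In that group the libraries of Snai1 and Zeb1, of Twist1 and Zeb2, and of Snai2 and Twist2 overlapped. In dKO cells without cytokines it was Snai1 at 13.3, Zeb1 at 9.83 ± 1.35, Prrx1 at 9.40 ± 1.90, Zeb2 at 4.63 ± 0.336, Twist1 at 4.53 ± 0.929, Snai2 at 1.32 ± 0.173 and Twist2 at 0.449 ± 0.217 CPM per kilobase (SD, n = 2). There the libraries of Zeb1 and Prrx1 overlapped, as did those of Zeb2 and Twist1.

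In WT cells Zeb1 was the most abundant of the 7 per length and Prrx1 the second least abundant. With cytokines the WT order was Zeb1 at 15.15 ± 0.352, Zeb2 at 7.68 ± 1.11, Snai1 at 4.54 ± 0.425, Twist1 at 3.44 ± 1.34, Snai2 at 0.721 ± 0.217, Prrx1 at 0.216 ± 0.147 and Twist2 at 0.0788 ± 0.00646 CPM per kilobase (SD, n = 2). Without cytokines it was Zeb1 at 10.7 ± 0.381, Zeb2 at 4.17 ± 0.476, Snai1 at 3.54 ± 0.141, Twist1 at 3.13 ± 1.19, Snai2 at 1.72 ± 0.419, Prrx1 at 0.149 ± 0.135 and Twist2 at 0.0392 ± 0.0104 CPM per kilobase (SD, n = 2). Among neighbours in these 2 orders, only the libraries of Snai1 and Twist1 overlapped, in both WT groups.

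The share of Prrx1 in the summed level of the 7 genes per length was 40.7% and 42.2% in the dKO libraries with cytokines and 19.8% and 23.3% in the dKO libraries without. In WT libraries that share was 0.362% and 0.974% with cytokines and 0.235% and 1.01% without. Zeb1 made up 16.5% to 23.4% of the sum in the 4 dKO libraries and 43.2% to 48.3% in the 4 WT libraries. The sum itself was 56.1 and 67.2 CPM per kilobase in dKO cells given cytokines, 40.7 and 46.2 in dKO cells without, 30.9 and 32.8 in WT cells given cytokines and 22.7 and 24.2 in WT cells without.

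**Figure D1:**
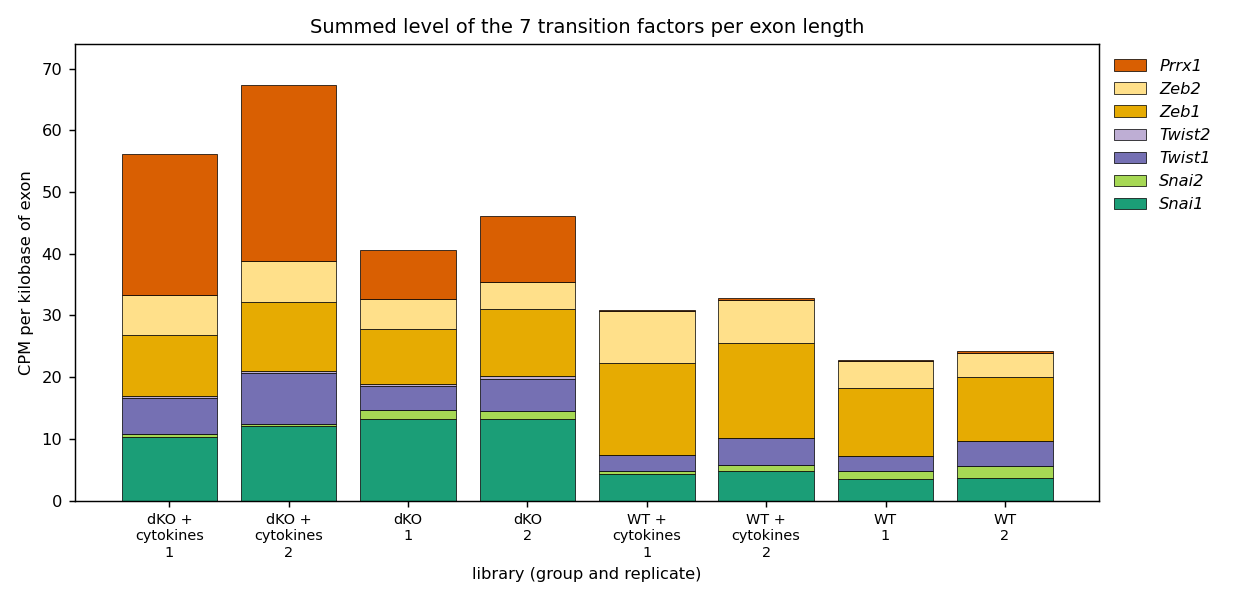
Summed CPM per kilobase of exon of the 7 genes in each library, with 1 bar per library and 1 coloured segment per gene. The Prrx1 segment makes up 19.8% to 42.2% of the dKO bars and at most 1.01% of the WT bars, where Zeb1 is the tallest segment.

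Prrx1 (ENSMUSG00000026586, chr1:163245119-163313710, minus strand, build GRCm38) showed the widest difference between genotypes of the 7 genes. The dKO libraries with cytokines held 253 and 314 CPM of Prrx1, and the dKO libraries without held 89.2 and 119 CPM. In WT libraries Prrx1 stood at 1.24 and 3.53 CPM with cytokines and at 0.591 and 2.70 CPM without. Every dKO library was above every WT library.

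Without cytokines Prrx1 was 62.4-fold higher in dKO than in WT cells (log2 fold change 5.96, SE 0.771, 95% interval 4.07 to 7.86, adjusted p = 0.00693, edgeR's quasi-likelihood test, adjusted by Benjamini-Hochberg over all genes tested). The WT libraries rest on 28 and 90 counts with cytokines and on 16 and 80 counts without, against 1995 to 7111 counts in dKO libraries. With cytokines it was 118-fold higher in dKO cells (log2 fold change 6.88, SE 0.793, adjusted p = 0.00373 in edgeR). Without WT replicate 1 or WT replicate 2 the log2 fold change without cytokines was 5.26 or 7.45, and without WT cytokine replicate 1 or 2 that with cytokines was 6.33 or 7.84. Ranked by log2 fold change among the 15698 tested genes, it was number 139 without cytokines and number 81 with them.

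The cytokine values of Prrx1 passed the test only when same-numbered libraries were paired. In dKO cells the level with cytokines was 2.73-fold that without (log2 fold change 1.45, SE 0.609, adjusted p = 0.226 in edgeR). The ratio was 2.84 between the replicate 1 libraries and 2.64 between the replicate 2 libraries. With same-numbered libraries paired within genotype, the log2 fold change in dKO cells was 1.45 with an SE of 0.094 (adjusted p = 5.71e-05 in edgeR). In WT cells the value was 0.53 on the log2 scale (SE 0.736, adjusted p = 0.669) without pairing and 0.56 (SE 0.182, adjusted p = 0.041) with it, both in edgeR. The test of whether the cytokine response differed between genotypes gave 0.91 (SE 0.952, adjusted p = 0.794) without pairing and 0.89 (SE 0.206, adjusted p = 0.0449) with it.

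**Figure D2:**
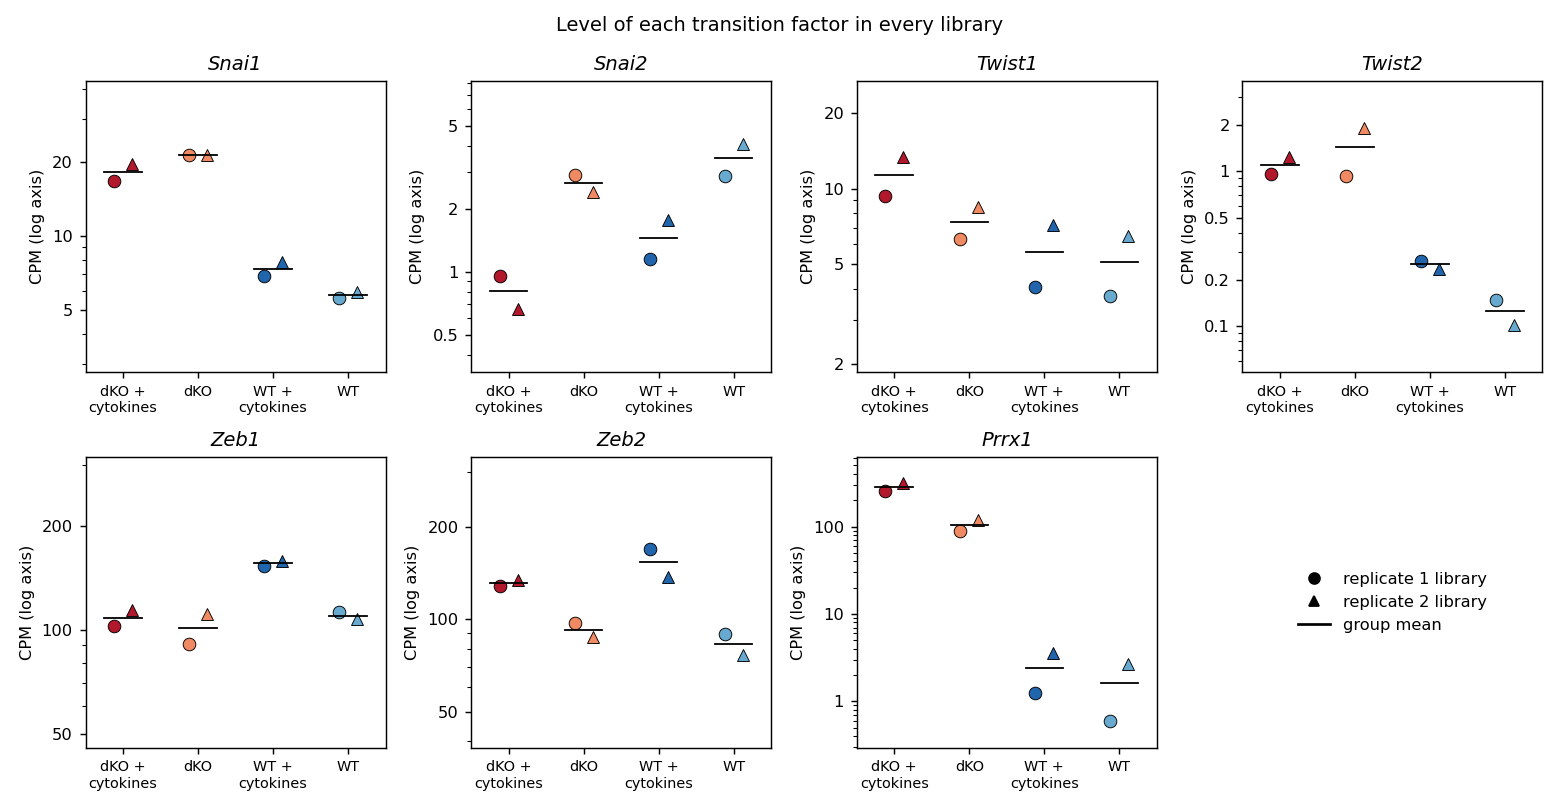
CPM of each of the 7 genes in every library on log axes, with circles for replicate 1, triangles for replicate 2 and a line at the group mean. Prrx1, Snai1 and Twist2 are higher in all 4 dKO libraries than in all 4 WT libraries, while Zeb1 stands at 153 and 158 CPM in WT cells given cytokines and at or below 114 CPM in every other library.

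Snai1 (ENSMUSG00000042821, chr2:167538195-167542814, plus strand), which encodes SNAIL, was higher in dKO cells and differed little between their 2 libraries. It stood at 16.8 and 19.7 CPM in dKO cells given cytokines and at 21.5 and 21.5 CPM in dKO cells without. In WT cells it stood at 6.88 and 7.85 CPM with cytokines and at 5.58 and 5.90 CPM without. No dKO library overlapped a WT library.

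Without cytokines Snai1 was 3.74-fold higher in dKO than in WT cells (log2 fold change 1.90, SE 0.147, 95% interval 1.55 to 2.26, adjusted p = 0.00137 in edgeR). With cytokines it was 2.47-fold higher (log2 fold change 1.30, SE 0.144, adjusted p = 0.00276 in edgeR). Cytokines gave a log2 fold change of -0.24 in dKO cells (adjusted p = 0.368) and of 0.36 in WT cells (adjusted p = 0.137), neither of which passed. The difference between those 2 responses was -0.60 on the log2 scale, with an unadjusted p of 0.0223 and an adjusted p of 0.375 in edgeR.

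Snai2 (ENSMUSG00000022676, chr16:14705852-14709385, plus strand), which encodes SLUG, had lower values with cytokines in both genotypes. It stood at 0.954 and 0.663 CPM in dKO cells given cytokines and at 2.91 and 2.41 CPM in dKO cells without. In WT cells it stood at 1.15 and 1.77 CPM with cytokines and at 2.88 and 4.08 CPM without. Within each genotype, both libraries with cytokines were below both without.

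The log2 fold change of Snai2 with cytokines was -1.71 in dKO cells (SE 0.376, adjusted p = 0.0524) and -1.25 in WT cells (SE 0.357, adjusted p = 0.0578), neither past the threshold in edgeR. The WT value passed without both dKO replicate 2 libraries, at -1.27 (adjusted p = 0.0477). With same-numbered libraries paired within genotype both passed, at -1.72 in dKO cells (adjusted p = 0.00475) and -1.26 in WT cells (adjusted p = 0.00651). Between genotypes Snai2 did not pass the test, with log2 fold changes of -0.85 with cytokines (adjusted p = 0.125) and -0.39 without (adjusted p = 0.437). Per length, Snai1 was 21.9 and 37.0 times Snai2 in dKO cells given cytokines and 9.23 and 11.1 times in dKO cells without. In WT cells the ratio of Snai1 to Snai2 was 7.48 and 5.54 with cytokines and 2.41 and 1.80 without. The 4 groups did not overlap in this ratio.

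Twist1 (ENSMUSG00000035799, chr12:33957671-33959829, plus strand), known for mesoderm and skull development, passed in no comparison of edgeR's fit without pairing or a replicate block. It stood at 9.36 and 13.4 CPM in dKO cells given cytokines and at 6.30 and 8.44 CPM in dKO cells without. In WT cells it stood at 4.06 and 7.15 CPM with cytokines and at 3.73 and 6.47 CPM without. With cytokines both dKO libraries were above both WT libraries, at a log2 fold change of 1.02 (SE 0.392, adjusted p = 0.0859 in edgeR). Without cytokines the genotypes overlapped, at a log2 fold change of 0.53 (SE 0.391, adjusted p = 0.352).

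The replicate 2 library held more Twist1 than the replicate 1 library in all 4 groups. The same was so of Prrx1, and of 1960 of the 15698 tested genes (12.5%). The replicate number as a block brought the dKO to WT difference of Twist1 with cytokines past the threshold, at 1.05 on the log2 scale (adjusted p = 0.00838 in edgeR). That block ties same-numbered libraries across genotypes, where deviations from group means correlated at only 0.017 to 0.134. The data thus gave little ground for it. Pairing within genotype brought the cytokine response of Twist1 in dKO cells past the threshold, at 0.62 (SE 0.156, adjusted p = 0.0232 in edgeR).

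Twist2 (ENSMUSG00000007805, chr1:91801461-91848028, plus strand), known for roles in skin and bone, was the least abundant of the 7 per length. Its libraries held 21 and 28 counts in dKO cells given cytokines, 21 and 46 in dKO cells without, 6 and 6 in WT cells given cytokines and 4 and 3 in WT cells without. It passed the filter on low counts only through the dKO groups, since none of the WT libraries reached 0.417 CPM. Of its exon bases, 46.53% overlap the antisense gene Gm29100, which held 13 to 27 counts in dKO libraries and 0 to 6 in WT libraries. No source used here gives the strand setting of the counting, so reads of the 2 genes cannot be told apart and the values of Twist2 are uncertain.

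With that limit, Twist2 was 11.1-fold higher in dKO than in WT cells without cytokines (log2 fold change 3.48, SE 0.553, adjusted p = 0.00979) and 4.32-fold higher with cytokines (log2 fold change 2.11, SE 0.520, adjusted p = 0.0235), both in edgeR. The call without cytokines was lost without WT replicate 1 (adjusted p = 0.0663) or WT replicate 2 (adjusted p = 0.0753). The call with cytokines was lost without any 1 of the 4 libraries compared (adjusted p between 0.0671 and 0.113) and without both dKO replicate 2 libraries (adjusted p = 0.0613).

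Zeb1 (ENSMUSG00000024238, chr18:5591860-5775467, plus strand) and Zeb2 (ENSMUSG00000026872, chr2:44983632-45117395, minus strand) were the members that passed the test with cytokines in WT cells without pairing. With same-numbered libraries paired within genotype, Snai2 and Prrx1 passed there too. Zeb1 stood at 102 and 114 CPM in dKO cells given cytokines and at 91.1 and 111 CPM in dKO cells without. In WT cells it stood at 153 and 158 CPM with cytokines and at 113 and 107 CPM without. The WT libraries with cytokines were above the other 6 libraries, which overlapped between dKO groups.

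Zeb1 rose 1.42-fold with cytokines in WT cells (log2 fold change 0.50, SE 0.117, adjusted p = 0.0327 in edgeR), and in dKO cells the value was 0.10 (adjusted p = 0.679). With cytokines Zeb1 was 1.44-fold lower in dKO than in WT cells (log2 fold change -0.53, SE 0.117, adjusted p = 0.0175 in edgeR). Without cytokines the log2 fold change between genotypes was -0.12 (95% interval -0.40 to 0.16, adjusted p = 0.47). The difference between the 2 cytokine responses was -0.40, with an unadjusted p of 0.0474 and an adjusted p of 0.458 in edgeR, so the responses were not shown to differ. The WT cytokine call was lost without any 1 of the 4 libraries compared (adjusted p between 0.139 and 0.168), and the genotype call with cytokines without dKO cytokine replicate 1 (0.0895), WT cytokine replicate 1 (0.0836) or WT cytokine replicate 2 (0.0835).

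Zeb2, which is also known as a factor of macrophages and neural crest, stood at 128 and 134 CPM in dKO cells given cytokines and at 97.1 and 87.6 CPM in dKO cells without. In WT cells it stood at 169 and 138 CPM with cytokines and at 89.8 and 76.4 CPM without. In both genotypes the libraries with cytokines were above those without. Zeb2 rose 1.84-fold with cytokines in WT cells (log2 fold change 0.88, SE 0.136, adjusted p = 0.0098 in edgeR). In dKO cells the value was 0.51 (SE 0.135, adjusted p = 0.0843 in edgeR), and 0.51 (SE 0.086, adjusted p = 0.00426) with libraries paired within genotype. The WT call was lost without WT cytokine replicate 1 (adjusted p = 0.068), WT replicate 1 (0.0531) or WT replicate 2 (0.0782). Between genotypes Zeb2 did not pass the test, with log2 fold changes of -0.22 with cytokines (adjusted p = 0.234) and 0.15 without (adjusted p = 0.434).

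Counted over the 7 genes, 3 were higher and none lower in dKO than in WT cells without cytokines, where 23% of all tested genes passed in either direction, 13.4% higher and 9.66% lower. With cytokines 3 were higher and 1 lower, where 34% of all tested genes passed, 18.6% higher and 15.4% lower. Leaving out Twist2, which passed the filter through dKO libraries alone, Snai1 and Prrx1 were the genes higher in both comparisons. The 2 comparisons of genotype share no library, but they come from the same fit. Deviations from group means also correlated between same-numbered libraries, at 0.689 in dKO and 0.434 in WT cells. The 2 comparisons are therefore not independent of each other. Without pairing, cytokines raised 2 of the 7 in WT cells, Zeb1 and Zeb2, where 17.4% of all tested genes passed and 9.72% were higher. In dKO cells 0 of the 7 passed in edgeR without pairing, where 5.55% of all tested genes passed and 23.4% had an unadjusted p under 0.05. Of the members, 2 had an unadjusted p under 0.05 (Snai2 and Zeb2), and the same 2 passed the threshold in DESeq2. With same-numbered libraries paired within genotype, Snai2, Twist1, Zeb2 and Prrx1 passed there in edgeR. These 2 comparisons share their libraries with the 2 comparisons of genotype. Libraries of the 2 groups did not overlap for 3 of the 7 genes between genotypes without cytokines and for all 7 with them, where the shares of all tested genes were 70% and 73.5%. With cytokines against without, they did not overlap for 5 of the 7 in dKO cells and 5 of the 7 in WT cells, where the shares of all tested genes were 49.5% and 68.2%.

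Without pairing, no member passed the test of whether the cytokine response differed between genotypes in edgeR. In that fit 0% of all tested genes passed and 10.7% had an unadjusted p under 0.05. With same-numbered libraries paired within genotype, Prrx1 passed it (adjusted p = 0.0449 in edgeR). Snai1 and Zeb1 were the members with an unadjusted p under 0.05, and no member passed in DESeq2. The calls of Snai1 and Prrx1 between genotypes held when each of the 8 libraries was left out in turn, with adjusted p-values in edgeR of at most 0.0252 for Snai1 and at most 0.038 for Prrx1.

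**Figure D3:**
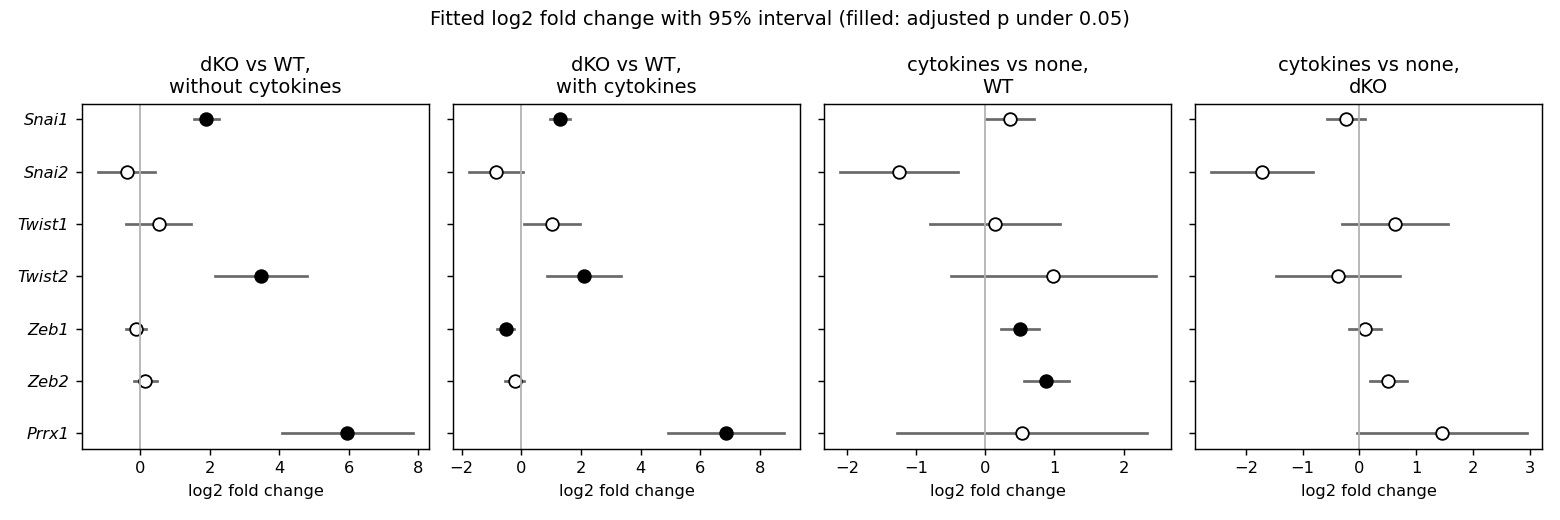
Fitted log2 fold change of the 7 genes with 95% intervals in 4 comparisons, each panel with its own axis range; filled points passed an adjusted p of 0.05 in edgeR. Prrx1 stands at 5.96 and 6.88 between genotypes, against 1.90 and 1.30 for Snai1, and Snai2 is the gene farthest below 0 with cytokines, at -1.25 in WT and -1.71 in dKO cells.

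Over the 8 libraries, the genes whose log2 CPM followed each member most closely were picked from 9268 or 9269 genes of at least 10 CPM on average. These correlations describe libraries that share groups and replicate numbers. For Prrx1 they were Gad2 (Pearson r = 0.9987), Ikbip (0.9941) and B4galnt1 (0.9929). For Snai1 they were Tgfbr1 (0.9935), P2rx4 (0.9926) and Tpst1 (0.9902), and for Twist2 Spred2 (0.9835), Tgfbr1 (0.9822) and Parp2 (0.9716). Tgfbr1, a receptor of TGF-beta, was thus among the 3 nearest genes of both. It was not alone, since 142 genes for Snai1 and 30 for Twist2 had a Pearson r over 0.95, and 173 for Prrx1. The values of Twist2 are also uncertain, as given above. For Zeb1 they were Myef2 (0.9938), Esf1 (0.9895) and Hk1 (0.9845), and for Zeb2 Gna13 (0.9886), Rabgef1 (0.9878) and Gsdmd (0.9875). Snai2 was followed by C1galt1 (0.9758), Cipc (0.9753) and Adh5 (0.9719), and Twist1 by Ereg (0.9679), Clcf1 (0.9549) and Mta3 (0.9541). Among the members, Prrx1 and Snai1 had a Pearson r of 0.953 and Zeb2 and Snai2 one of -0.83, over the same 8 libraries.

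Of 15 tested other factors linked to mesenchymal transition, 2 were higher and 2 lower in dKO than in WT cells without cytokines, where 23% of all tested genes passed in either direction, with a median log2 fold change of 0.39 against 0.02 over all tested genes. Sox9, an HMG-box factor known from cartilage and bile ducts, stood at 7.73 and 11.2 CPM in dKO and at 0.332 and 0.303 CPM in WT cells (29.4-fold higher, adjusted p = 0.00101 in edgeR). Foxc1, a forkhead factor, was 2.07-fold higher (adjusted p = 0.0337). Msx2, a homeobox factor, was 10.9-fold lower (adjusted p = 0.0472), with 0.402 and 3.20 CPM in dKO and 18.6 and 21.1 CPM in WT cells. The other lower one was Hand2, named after its values were seen, which passed the filter on low counts only through WT libraries, where it averaged 0.506 CPM. With cytokines 3 were higher and 1 lower, where 34% of all tested genes passed. Prrx2, the close relative of Prrx1, stood at 4.68 and 7.55 CPM in dKO and at 0.221 and 0.353 CPM in WT cells given cytokines (20.8-fold higher, adjusted p = 0.0186 in edgeR), and it passed the filter on low counts only through dKO libraries. Klf8 was 4.47-fold lower in dKO cells given cytokines (adjusted p = 0.0107), and both its libraries were over the filter's 0.417 CPM only in WT cells given cytokines, the group where it is high. In WT cells cytokines raised 2 of the 15, Klf8 by 3.34-fold and Sox9 by 3.16-fold, where 9.72% of all tested genes were higher. In dKO cells 0 of the 15 passed in edgeR, where 5.55% of all tested genes passed. Counts with libraries left out are an alternative added after the data were seen. Fewer of this list passed without cytokines when dKO replicate 1 or any 1 WT library of either treatment was left out. With cytokines fewer passed without dKO cytokine replicate 1 or either WT cytokine library. In WT cells fewer were higher with cytokines without any 1 WT library. All tested genes that passed were also fewer in each of these fits. Without both dKO replicate 2 libraries more of the list passed with cytokines but not without. More of all tested genes passed there in both comparisons.

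E proteins are the partners of TWIST proteins, and Id proteins keep E proteins from binding DNA. Of 7 tested genes of both kinds, 1 was lower in dKO than in WT cells without cytokines, where 23% of all tested genes passed in either direction. It was Tcf12, which stood at 96.2 and 103 CPM in dKO and at 150 and 142 CPM in WT cells (1.47-fold lower, adjusted p = 0.00897 in edgeR). With cytokines 3 were lower and 1 higher, where 34% of all tested genes passed in either direction. Id4 was 5.47-fold higher in dKO cells (adjusted p = 0.0126), Id2 2.34-fold lower (0.0497) and Tcf4 1.77-fold lower (0.0203). Id3 fell 2.37-fold with cytokines in WT cells (adjusted p = 0.00521). Fewer of the 7 passed without cytokines when WT replicate 1 or 2 was left out. Fewer passed with cytokines when dKO cytokine replicate 1 or either WT cytokine library was left out. Without both dKO replicate 2 libraries more were lower in both comparisons. The number of all tested genes that passed moved the same way in these fits.

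Of 17 tested corepressors and stability regulators of SNAI proteins, 1 was higher and 2 lower in dKO than in WT cells without cytokines. With cytokines 2 were higher and 4 lower. Of all tested genes, 23% passed in either direction without cytokines and 34% with them. The higher one without cytokines was Lox, which is known as a collagen cross-linking enzyme. Lox stood at 1297 and 945 CPM in dKO cells given cytokines, at 1071 and 667 CPM in dKO cells without, at 66.4 and 98.2 CPM in WT cells given cytokines and at 172 and 202 CPM in WT cells without. It was 13.6-fold higher in dKO cells with cytokines (adjusted p = 0.00183) and 4.65-fold higher without (adjusted p = 0.00722). Loxl2, whose product is known to bind SNAIL, was 1.88-fold lower in dKO cells with cytokines (adjusted p = 0.0107) and 1.95-fold lower without (adjusted p = 0.0136). The deacetylase gene Hdac1 was 1.53-fold lower without cytokines (adjusted p = 0.0269), and the kinase gene Nuak1 2.16-fold lower with cytokines (adjusted p = 0.0166). Fewer of the 17 passed without cytokines when WT replicate 1, WT replicate 2 or dKO replicate 1 was left out. With cytokines fewer passed without dKO cytokine replicate 1 or either WT cytokine library. More were lower in both comparisons without both dKO replicate 2 libraries. In each of these fits the number of all tested genes that passed moved the same way.

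Mesenchymal genes that rose in dKO cells were mostly collagens. Of 22 tested, 7 were higher and 0 lower in dKO than in WT cells without cytokines, where 23% of all tested genes passed in either direction. With cytokines 9 were higher and 1 lower (Fap, named after its values were seen), where 34% passed. Fap averaged 0.632 CPM in WT cells given cytokines and at most 0.111 CPM in the other groups, so it passed the filter on low counts only through the group where it is high. The list's median log2 fold change was 0.62 without cytokines and 0.50 with them, against 0.02 and 0.01 over all tested genes. Without cytokines Col6a1 was 87.1-fold higher (adjusted p = 0.00826), Col6a2 69.2-fold (0.0106) and Col3a1 42.2-fold (0.0189) in edgeR. Col1a2 stood at 229 and 220 CPM in dKO and at 3.84 and 8.32 CPM in WT cells given cytokines (36.8-fold higher, adjusted p = 0.00128). Fewer passed without cytokines when WT replicate 1 or 2 was left out. Fewer passed with cytokines without either WT cytokine library or dKO cytokine replicate 1. With both dKO replicate 2 libraries left out more passed in both comparisons, lower genes among them. All tested genes that passed changed in number the same way in these fits. In WT cells cytokines raised 4 of the 22, one of which was Fap, where 9.72% of all tested genes were higher. Among them Fbn1 rose 2.69-fold and Col5a1 1.92-fold. Fewer of the 22 and fewer of all tested genes passed there without WT replicate 1 or 2.

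Cdh1, the E-cadherin gene that SNAI and ZEB proteins are known to repress, was higher in dKO cells, as Snai1 was. It stood at 4.82 and 2.47 CPM in dKO cells given cytokines, at 3.31 and 2.66 CPM in dKO cells without, at 0.573 and 0.628 CPM in WT cells given cytokines and at 0.738 and 0.404 CPM in WT cells without. That was 6.02-fold higher in dKO cells with cytokines (adjusted p = 0.00927) and 5.20-fold higher without (adjusted p = 0.0168). Of 10 tested epithelial genes, 1 was higher and 1 lower without cytokines and 2 higher and 0 lower with them. The shares of all tested genes that passed in either direction were 23% and 34%. The other 10 of the 20 listed did not pass the filter on low counts. The desmosome gene Dsp was 2.71-fold lower without cytokines (adjusted p = 0.0472), and the ETS factor gene Elf3, at 1.73 and 1.19 CPM in dKO and 0 and 0.0393 CPM in WT cells given cytokines, passed upward (adjusted p = 0.00992), having passed the filter on low counts only through dKO libraries. Fewer of the list passed without cytokines when dKO replicate 1, WT replicate 1 or WT replicate 2 was left out. Fewer passed with cytokines without WT cytokine replicate 1. Without both dKO replicate 2 libraries more passed in both comparisons. The number of all tested genes that passed moved likewise in these fits. Cytokines lowered the keratin gene Krt18 and the splicing factor gene Esrp2 in both genotypes. These were the only 2 of the 10 that passed there. Of all tested genes, 5.55% passed in either direction in dKO cells and 17.4% in WT cells. Krt18 fell 9.20-fold in dKO cells (adjusted p = 0.028) and 5.69-fold in WT cells (0.0248), and Esrp2 5.31-fold in dKO cells (0.0316) and 8.40-fold in WT cells (0.00909). With any 1 library left out, fewer of the list were lower with cytokines in dKO cells. In WT cells fewer were lower without any 1 WT library. Fewer of all tested genes passed in these fits too. In dKO cells fewer of the list were also lower without both dKO replicate 2 libraries, where more of all tested genes passed.

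Of 18 endothelial genes, 6 were lower and 1 higher (Tal1, named after its values were seen) in dKO than in WT cells without cytokines, and 5 were lower and 0 higher with cytokines. Eng, a TGF-beta co-receptor, was 4.32-fold lower without cytokines (adjusted p = 0.00565), and Emcn and Pecam1, genes of endothelial surface proteins, 3.63-fold and 3.47-fold lower (0.0052 and 0.0293). Tie1, a receptor kinase gene, was 3.56-fold lower with cytokines (adjusted p = 0.00613). The list's median log2 fold change was -1.77 without cytokines and -1.48 with them. Of all tested genes, 23% passed in either direction without cytokines and 34% with them. Leaving out both dKO replicate 2 libraries, more of the 18 were lower in both comparisons. Fewer were lower without cytokines when WT replicate 1 or 2 was left out, and fewer with cytokines without WT cytokine replicate 1. The number of all tested genes that passed moved the same way in these fits.

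Among genes of TGF-beta, BMP and Notch signalling, which are known to induce SNAI and TWIST genes, 2 of 18 were higher and 5 lower in dKO than in WT cells without cytokines, and 5 were higher and 4 lower with them. The shares of all tested genes that passed in either direction were 23% without cytokines and 34% with them. The ligand gene Bmp6 was 3.13-fold lower without cytokines (adjusted p = 0.0308), the receptor gene Notch1 2.94-fold lower (0.0334) and the Notch ligand gene Jag1 2.87-fold lower (0.00545). With cytokines Jag1 was 4.86-fold lower (0.00154), and the ligand genes Tgfb3 and Tgfb2 were 4.04-fold and 3.76-fold higher (0.00346 and 0.0434). Cytokines lowered the TGF-beta receptor gene Tgfbr2 by 2.12-fold in dKO cells (adjusted p = 0.0216) and by 2.26-fold in WT cells (0.0078). In WT cells they also lowered Tgfb2 by 10.8-fold (0.0158) and the inhibitor gene Smad7 by 2.48-fold (0.00425). Fewer of the 18 were lower in dKO than in WT cells without cytokines when WT replicate 1 or 2 was left out. Fewer were lower with cytokines without dKO cytokine replicate 1 or any 1 WT library. More were lower in both comparisons without both dKO replicate 2 libraries. The Tgfbr2 call in dKO cells was the only one of the list there, where 5.55% of all tested genes passed. That call was lost without dKO cytokine replicate 1 or any 1 WT library. In WT cells 5 were lower with cytokines, where 17.4% of all tested genes passed in either direction. This count fell without any 1 WT library and rose without both dKO replicate 2 libraries. The number of all tested genes that passed moved the same way in all these fits.

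**Figure D4:**
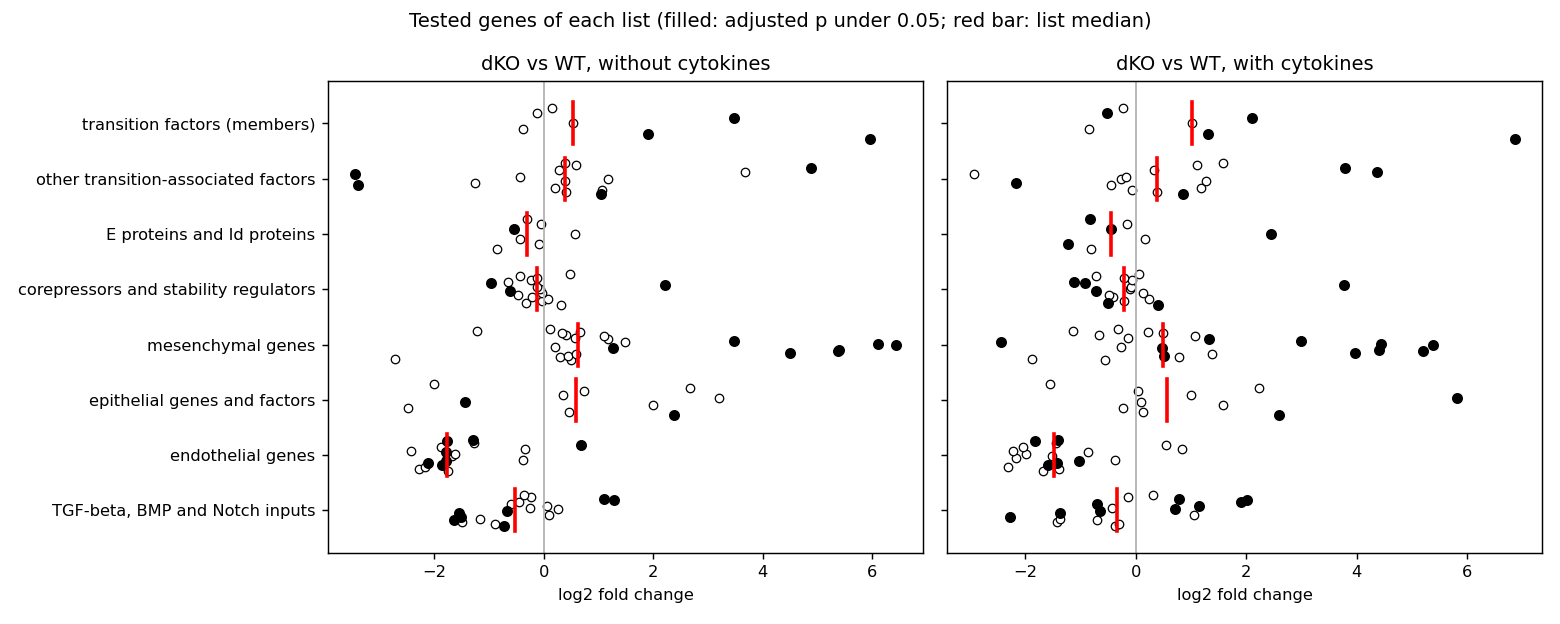
Log2 fold change between dKO and WT cells of every tested gene in 8 lists, without cytokines on the left and with cytokines on the right; filled points passed an adjusted p of 0.05 in edgeR and a red bar marks the list's median. The median of the 18 endothelial genes is -1.77 on the left and -1.48 on the right, and that of the 7 transition factors 0.53 and 1.02.

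Some markers of other cell types also differed between genotypes. The 16 markers of stellate cells, pericytes and fibroblasts summed to 14660 to 17420 CPM in dKO cells given cytokines, 13000 to 15680 CPM in dKO cells without, 10100 to 10880 CPM in WT cells given cytokines and 9312 to 9542 CPM in WT cells without, most of it the proteoglycan gene Dcn. In each group 9 of the 16 reached 1 CPM. The stellate cell gene Lrat was at 0 in both dKO libraries and both WT libraries without cytokines. Pdgfra, a receptor gene of fibroblasts, stood at 1174 and 616 CPM in dKO and at 32.2 and 25.4 CPM in WT cells given cytokines, and at 933 and 615 CPM in dKO and 2.07 and 3.67 CPM in WT cells without. Without cytokines 4 of the 12 tested markers of this list were higher and 0 lower, where 23% of all tested genes passed in either direction. With cytokines 3 were higher and 0 lower, where 34% passed. Of these 4, Cygb, named after its values were seen, averaged 0.703 CPM in dKO and 0.0706 CPM in WT cells without cytokines. It passed the filter on low counts only through dKO libraries. Values of Thy1, Pi16 and Rgs5 ran the other way without cytokines, at log2 fold changes of -2.51, -2.35 and -2.11, none past the threshold. The 9 markers of cholangiocytes and mesothelium summed to 154 to 264 CPM and 55.9 to 93.4 CPM in dKO cells with and without cytokines, mostly Spp1 and Sox9. In WT cells they summed to 2.78 to 3.34 CPM with cytokines and 2.59 to 3.74 CPM without. The mesothelial genes Wt1 and Lrrn4 averaged 6.04 and 6.15 CPM in dKO and 0.494 and 0.118 CPM in WT cells without cytokines, and the bile duct gene Krt19 3.35 CPM in dKO and 0.514 CPM in WT cells, none past the threshold (adjusted p = 0.052, 0.156 and 0.075 in edgeR), while Upk3b was at 0 in both dKO groups. Leukocyte markers summed to at most 10.1 CPM and hepatocyte markers to at most 0.291 CPM in any library. The part of these cell types in the levels of Prrx1, Snai1 and Twist2 was not tested.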

How the data were processed

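Polyadenylated RNA was sequenced from 8 libraries, 2 in each of 4 groups taken from the genotype and treatment labels, with replicate numbers from the sample titles. The authors deposited whole-number read counts per Ensembl gene, not normalized. STAR 2.7.6a, FastQC 0.11.5 and build GRCm38 were used per the submitters' processing notes. No source used here gives the counting program, its annotation or its strand setting. Libraries were made with an unstranded or a stranded kit, per the labels' protocols, which do not say which library used which. Gene names, positions and exon lengths came from GENCODE M21, which named 52403 of 52636 identifiers.

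Counts were fitted with edgeR 4.0.16 in R 4.3.3 (TMM, filterByExpr by group with a minimum count of 10, robust quasi-likelihood, 1 coefficient per group over 8 libraries, 4 residual degrees of freedom), tested two-sided and adjusted over 15698 genes at a threshold of 0.05. CPM uses TMM-scaled library sizes. SE is the absolute log2 fold change divided by the square root of F. The common biological coefficient of variation was 24.3%. The script was tested on simulated data. Alternatives were RLE size factors, DESeq2 1.42.0, no filter, only the 4 libraries compared, replicate blocks, and libraries left out.

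Deviations from group means correlated across genes at 0.689 between same-numbered dKO libraries and at 0.434 between same-numbered WT libraries, against 0.017 to 0.134 across genotypes, and Xist and Ddx3y also matched within genotype by number. On these data, and not on the labels, same-numbered libraries of a genotype were treated as pairs. Replicates were not duplicates, with a chi-square per degree of freedom of 21.0 or more.

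The members, lists and tests were chosen with earlier results of these data known. Named were all 7 members and, of each other list in a comparison, the 3 passing genes with the largest log2 fold change among those of at least 1 CPM on average in a group; for each member, the 3 genes with the highest correlation were named. Of the genes this rule gives, 1 is not reported here.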

Additional observations from a re-analysis of the deposited data

How the results depend on the processing

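Of the alternatives tried for the members' log2 fold changes (503 in all), 461 kept direction and side of the threshold, 16 passed where the value reported did not, 17 no longer passed and 9 turned round. The genotype calls of Snai1 and Prrx1 held under every alternative. Cytokines in dKO cells were the least stable comparison: 872 genes passed as reported, 1852 in DESeq2, 1 with only the 4 libraries compared, 1351 with the replicate number as a block, 3769 with the replicate block within genotype and 1339 without both dKO replicate 2 libraries. Of the members, 2 passed there in DESeq2 (Snai2 and Zeb2), 1 without a filter on low counts (Snai2), 2 with the replicate number as a block (Snai2 and Zeb2) and 4 with the replicate block within genotype. Cytokines in WT cells gave 2733 genes as reported, 4585 with only the 4 libraries compared, 5943 with the replicate block within genotype, which passed 4 members, and 4417 without both dKO replicate 2 libraries. Between genotypes without cytokines 3617 genes passed as reported, 2266 with only the 4 libraries compared and 5602 without both dKO replicate 2 libraries. The interaction gave 0 genes as reported (1683 at an unadjusted p under 0.05), 391 in DESeq2, 75 without a filter, 947 with the replicate block within genotype, which passed 1 member, and 193 without both dKO replicate 2 libraries. The cause of these differences was not tested. The replicate block changed no call of a member other than those given here and beside the results.

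With each library left out in turn, the counts of genes ranged from 130 to 731 for cytokines in dKO cells, 413 to 2749 for cytokines in WT cells, 1621 to 5523 between genotypes with cytokines, 527 to 3783 without cytokines and 0 to 41 for the interaction. The lowest count without cytokines came without WT replicate 1, with 685 without WT replicate 2 and 1180 without dKO replicate 1. Members passing ranged from 0 to 2 for cytokines in WT cells and from 2 to 4 between genotypes with cytokines. Log2 fold changes that turned round, none of which passed as reported, ranged from -0.42 to 2.02 for Prrx1 and -0.33 to 0.59 for Twist1 with cytokines in WT cells, -0.80 to 0.22 for Twist2 and -0.037 to 0.25 for Zeb1 with cytokines in dKO cells, -0.27 to 0.002 for Zeb1 between genotypes without cytokines, and -0.57 to 1.88 for the Prrx1 interaction. Without both dKO replicate 2 libraries Twist2 with cytokines in dKO cells was 0.027. RLE size factors moved the median of all genes by at most 0.0161 on the log2 scale. Depth limits Twist2 and Prrx1 in WT cells and Snai2 throughout.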

Other observations

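Prrx1 and the collagen genes differed in which dKO library was higher. Without cytokines Prrx1 stood at 89.2 CPM in dKO replicate 1 and at 119 CPM in dKO replicate 2, while Col3a1 stood at 1831 and 332 CPM, Col6a1 at 738 and 163 CPM and Lum at 1125 and 393 CPM in the same libraries. With cytokines the pattern was alike, with Prrx1 at 253 and 314 CPM, Col3a1 at 1449 and 419 CPM, Col6a1 at 180 and 94.7 CPM and Lum at 1311 and 487 CPM in dKO replicates 1 and 2. Snai1 stood at 21.5 CPM in both dKO libraries without cytokines. These genes were picked after their values were seen, and no test was made.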
